A study of Homo sapiens with 95 samples.

Results

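The genes described here encode the nuclear subunits of oxidative phosphorylation, the chain of inner mitochondrial membrane complexes that turns the oxidation of nutrients into ATP. They were chosen by symbol, as names that begin with NDUFA, NDUFB, NDUFC, NDUFS or NDUFV and a digit, with UQCR, with COX4 to COX8 or with ATP5, plus SDHA, SDHB, SDHC and SDHD, and by a mean count above 1 over all wells. Of the 23895 symbols measured, 92 matched the names and 81 passed the count minimum. These 81 genes comprised 37 of complex I, 4 of complex II, 9 of complex III, 12 of complex IV and 19 of complex V. The symbols are the older ones used in the files, so that ATP5G1, for example, is the gene now called ATP5MC1.

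Complex I, built from the NDUF subunits, takes electrons from NADH and passes them to ubiquinone while pumping protons, and complex II, the SDH genes, does the same from succinate without pumping. Complex III, the UQCR genes, hands the electrons on to cytochrome c, and complex IV, the COX genes, passes them to oxygen. Complex V, the ATP5 genes, lets protons flow back through a rotating ring of c subunits and makes ATP in its catalytic head. Some nuclear subunits, such as CYC1, fall outside the naming rule and are given apart, and the subunits encoded in mitochondrial DNA were not analysed here.

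The cells were AALE cells, an immortalized human bronchial epithelial line, profiled by 3′DGE, a multiplexed assay that counts unique molecules at the 3′ end of polyadenylated transcripts. All populations were grown in 24-well plates and, once confluent, exposed to DMSO as vehicle, to cigarette smoke condensate (CSC, 24 µg/ml), to benzo[a]pyrene (BaP, 173 µM) or to the tobacco nitrosamine NNK (490 µM). Populations named NRF2 (the product of NFE2L2), FGFR1, NRG1 and PIK3CA overexpressed those genes and had as control HCRED, cells with an empty vector that carries the HcRed reporter. FAT1 and CDKN2A were CRISPR knockouts and had as control GFP, cells that received the Cas9-EGFP plasmid with no guide RNA. The study describes the replicates as biological. Whether a population was 1 clone or many is not given in the sources used here, so the p-values measure the spread between wells within a population.

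Of 95 wells in 32 groups, the 82 with 1-digit replicate numbers entered the comparisons, and 13 wells with 2-digit numbers were kept aside because the labels do not say how they differ. Total counts ranged from 692446 to 1895735 per well (median 1293615), which limits the precision for low genes. The overexpressed genes were high in every DMSO well of their population, with NFE2L2 for example at 139 to 167 counts scaled to the library total (CPM) against 34.6 to 49.4 in HCRED, while CDKN2A stood at 18.6 to 20.2 CPM in its knockout against 34.4 to 38.2 in GFP. The 9 epithelial markers, which hold the general epithelial genes KRT19, EPCAM and CDH1 beside basal ones, were detected in all 82 wells. Of 13 markers of other cell types CD3E, VWF, CDH5 and FOXJ1 were at 0 in all wells. COL1A2, COL3A1, PDGFRB, SCGB1A1 and PTPRC had a count in 1 to 4 wells. Marker levels are given as CPM scaled to library totals alone. CD68 was counted in all 82 wells (4.2 to 37.2 CPM), DCN in 74 (up to 15.8), PECAM1 in 65 (up to 5.42) and COL1A1 in 50 (up to 2.32). The summed level of the 9 epithelial markers under DMSO was 1480 to 1593 CPM in HCRED, 1173 to 1391 in NRF2, 622 to 721 in PIK3CA, 945 to 1081 in GFP, 720 to 803 in FAT1 and 867 to 1154 in CDKN2A. That of the 13 other markers was 14.7 to 24.8 CPM in HCRED, 15.5 to 18.1 in NRF2, 24.6 to 36.0 in NRG1, 26.6 to 34.4 in PIK3CA, 8.39 to 12.5 in GFP, 12.7 to 13.9 in FAT1 and 17.9 to 19.1 in CDKN2A. Over the wells of each chemical its median was 18.8 CPM under DMSO (8.39 to 36.0), 34.4 under CSC (13.4 to 49.3), 23.2 under BaP (7.44 to 43.9) and 23.1 under NNK (11.4 to 40.4). CD68 had the highest median of the 13, at 16.6 CPM. The median sum of the 9 epithelial markers was 992 CPM under DMSO (622 to 1593) and 873 under CSC (624 to 1249). It was 758 under BaP (546 to 1170) and 924 under NNK (578 to 1442). The part of either sum in the population and chemical differences was not tested. In the plate layout the chemical and the plate row cannot be told apart. The wells' barcodes, of 6 bases, held 1 G or C under DMSO in every well, 1.24 on average under CSC, 4.74 under BaP and 5 under NNK.

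A set of 3 wells stood apart in the summed level of the subunit genes. Whether this was particular to these genes was not tested. In NRG1 cells under NNK, replicate 2 had 29335 summed CPM of the 81 genes against 51101 and 53421 in the other wells. Replicate 3 of FGFR1 under DMSO (41141 against 50165 and 52193) and replicate 2 of CDKN2A under DMSO (38942 against 48454 and 50112) deviated in the same way. Transcripts longer than 3000 nucleotides took 10.73% of the counts in the first of these wells and 6.55% and 6.58% in its replicates. Counts of calls that rest on these wells are given with and without them.

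Subunit genes were counted more densely than most genes. Their mean counts per well spanned 1.32 to 4325. Their median was 390, and that of every symbol with a mean above 1 was 9.81, and 78 of 81 had a count in every well. Together they took 4.15% to 5.73% of a well's counts (median 5.14%). They were also short, with a median transcript length of 670.5 nucleotides against 1896 over all genes above the minimum, and 57 of the 81 were under 1000. Of the 11 symbols below the minimum, COX4I2, COX6A2 and COX7A1, the lung or muscle isoforms of complex IV subunits, had no count in any well, and NDUFA4L2 averaged 0.0526 counts and COX8C 0.221. The nearest symbol outside the minimum was the antisense gene NDUFB2-AS1 at 0.789 counts, and the nearest inside were the readthrough ATP5J2-PTCD1 at 1.32 and the testis isoform COX6B2 at 2.642. Not every member is a subunit. ATP5S and ATP5SL are accessory factors, COX7A2L acts in supercomplexes, ATP5EP2 is a pseudogene copy, and UQCRHL is a near-identical copy of UQCRH whose reads the counting could split.

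Sequences upstream of these genes are shown because the study overexpressed the transcription factor NRF2 and exposed cells to BaP, a ligand of the aryl hydrocarbon receptor. RefSeq promoters (GRCh38.p14, from 250 bases before the start to 50 after it) matched 64 of the 81 genes. Short core motifs were searched on both strands. The core GGGCGG of SP1 was present in 60.9% of the 64 promoters and in 44.6% of all 27305. The ETS core CCGGAAG was in 29.7% against 10.7%, and the YY1 core AAGATGGC in 17.2% against 3.03%. The core GCGCATGC of nuclear respiratory factor 1, a regulator of mitochondrial genes that is not the overexpressed NRF2, was in 20.3% against 3.27%, and its full palindrome (GCGCA followed by its reverse complement) in 6.25% against 1.36%. For the antioxidant response element core TGACNNNGC, bound by the overexpressed NRF2, the shares were 15.6% and 13.6%, and for the aryl hydrocarbon receptor core GCGTG they were 48.4% and 36.3%. Of the matches, 3 of 18 for respiratory factor 1, 1 of 22 for ETS, 0 of 11 for YY1, 2 of 60 for SP1, 1 of 11 for the antioxidant element and 4 of 44 for the aryl hydrocarbon receptor overlapped another motif. Below are promoters of 3 genes that were higher under NNK (NDUFA10, ATP5G1, ATP5G2), of 2 that were higher in NRF2 cells (SDHD, UQCRQ) and of 1 that was lower there (ATP5E), with matches to any of the 6 motifs in capitals.
NDUFA10, chr2:240025293-240025592, minus strand: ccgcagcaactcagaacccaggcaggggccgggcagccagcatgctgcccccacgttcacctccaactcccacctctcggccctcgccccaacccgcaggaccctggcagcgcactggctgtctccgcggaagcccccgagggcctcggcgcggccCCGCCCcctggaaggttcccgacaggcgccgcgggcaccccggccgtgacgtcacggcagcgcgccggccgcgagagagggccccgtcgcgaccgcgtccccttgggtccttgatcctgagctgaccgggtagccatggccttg
ATP5G1, chr17:48892537-48892836, plus strand: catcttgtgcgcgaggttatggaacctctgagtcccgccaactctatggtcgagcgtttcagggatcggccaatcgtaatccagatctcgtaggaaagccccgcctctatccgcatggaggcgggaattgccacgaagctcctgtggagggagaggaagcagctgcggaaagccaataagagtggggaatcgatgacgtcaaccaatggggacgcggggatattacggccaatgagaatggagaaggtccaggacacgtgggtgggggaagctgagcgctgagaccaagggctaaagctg
ATP5G2, chr12:53676034-53676333, minus strand: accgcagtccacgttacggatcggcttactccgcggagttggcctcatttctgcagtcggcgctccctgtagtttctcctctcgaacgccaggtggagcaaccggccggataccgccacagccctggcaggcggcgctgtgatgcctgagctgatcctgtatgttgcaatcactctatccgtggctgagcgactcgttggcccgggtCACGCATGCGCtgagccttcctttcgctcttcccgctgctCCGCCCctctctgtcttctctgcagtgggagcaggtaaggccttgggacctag
SDHD, chr11:112086623-112086922, plus strand: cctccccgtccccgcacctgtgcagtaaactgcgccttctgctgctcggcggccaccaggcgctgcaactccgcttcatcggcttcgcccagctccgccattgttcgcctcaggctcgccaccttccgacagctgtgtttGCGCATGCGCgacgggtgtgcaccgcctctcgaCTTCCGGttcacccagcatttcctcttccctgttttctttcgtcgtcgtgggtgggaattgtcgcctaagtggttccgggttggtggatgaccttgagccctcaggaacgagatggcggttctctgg
UQCRQ, chr5:132866392-132866691, plus strand: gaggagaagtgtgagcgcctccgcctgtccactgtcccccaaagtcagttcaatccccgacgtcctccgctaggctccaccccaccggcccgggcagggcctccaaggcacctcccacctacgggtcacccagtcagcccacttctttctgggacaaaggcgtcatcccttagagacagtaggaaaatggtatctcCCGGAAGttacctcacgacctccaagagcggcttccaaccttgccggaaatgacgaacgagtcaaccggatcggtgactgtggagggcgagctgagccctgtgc
ATP5E, chr20:59032286-59032585, minus strand: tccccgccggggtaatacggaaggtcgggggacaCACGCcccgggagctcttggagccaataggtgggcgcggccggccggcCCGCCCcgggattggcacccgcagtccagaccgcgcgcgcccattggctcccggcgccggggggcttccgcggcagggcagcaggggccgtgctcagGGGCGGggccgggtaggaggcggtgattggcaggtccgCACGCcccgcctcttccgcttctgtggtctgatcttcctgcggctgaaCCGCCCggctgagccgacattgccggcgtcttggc
The SDHD promoter held the respiratory factor core on both strands, as its full palindrome, and an ETS core, the ATP5G2 promoter held the respiratory factor core overlapping the receptor core, the UQCRQ promoter held an ETS core, and none of the 6 held the antioxidant response element core. No match says only that these letters are not in the window.

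At the level of whole complexes, the differences were modest. Under DMSO the 81 genes summed to 46081 to 48499 CPM in HCRED wells, 54479 to 56831 in NRF2 wells, 52515 to 53926 in GFP wells and 49945 to 54581 in FAT1 wells. NRF2 and GFP wells did not overlap those of HCRED. By complex, the NRF2 wells were above the HCRED wells for each of the 5, with complex III at 9308 ± 204 against 7474 ± 217 CPM (SD, n = 3) and complex II at 904 ± 33.7 against 607 ± 18.6. GFP wells exceeded HCRED for complexes I, IV and V, with complex I at 17828 ± 336 against 15294 ± 414, while their complex II level of 559 ± 15.4 CPM lay below all HCRED wells. The complex I sum includes NDUFA4, now assigned to complex IV, and without it the levels were 13650 ± 196 CPM in GFP and 12253 ± 338 in HCRED. CDKN2A wells gave 10668 ± 1443 CPM for complex V against 12820 ± 355 in GFP, a log2 difference of -0.27, which was -0.16 without replicate 2. The CDKN2A sum over all members was at -0.22 with that well and -0.11 without it. In bulk RNA of this kind, fewer cells of a type and less RNA per cell cannot be told apart.

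**Figure D1:**
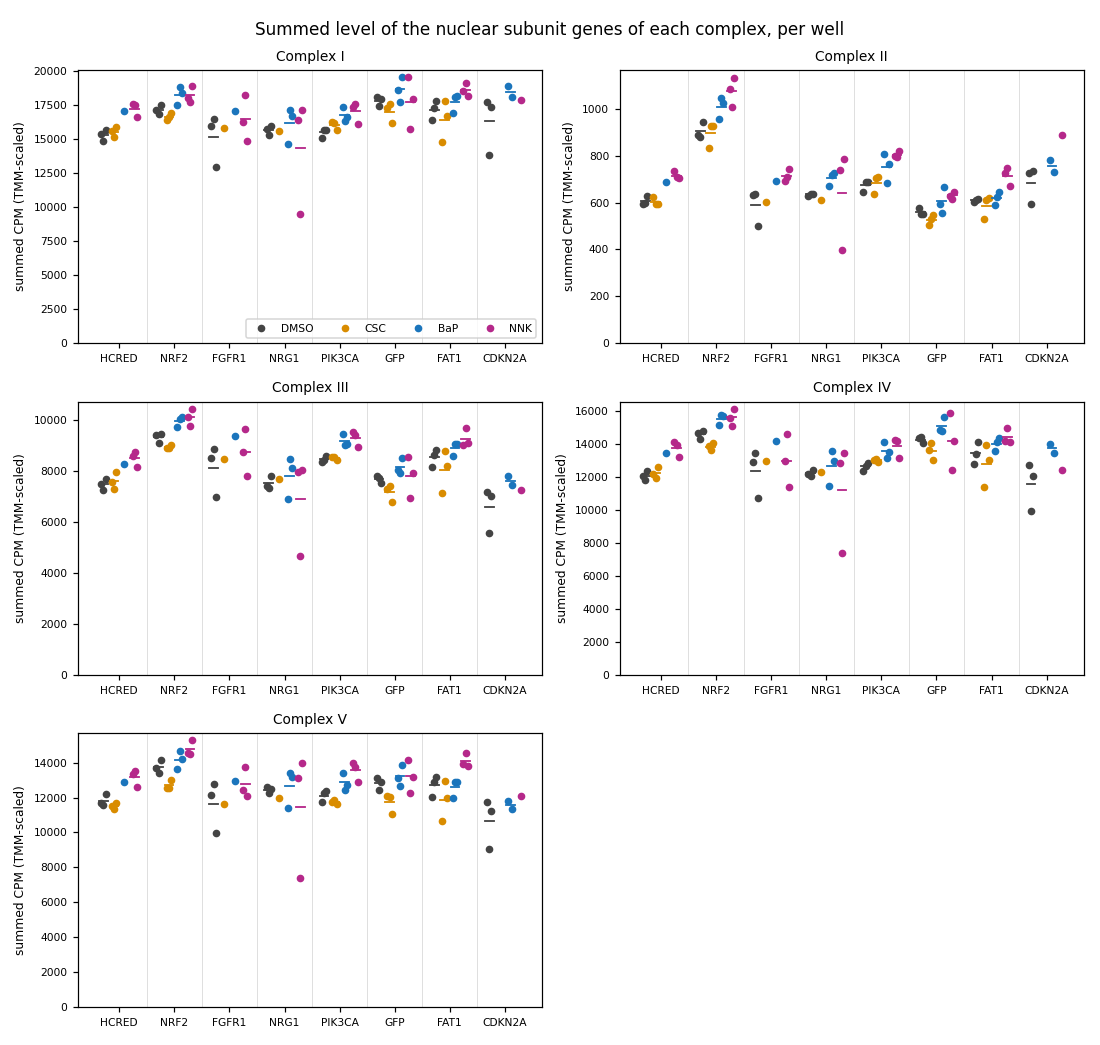
Summed TMM-scaled CPM of the nuclear subunit genes of each complex (y axis, from 0) in each of the 82 wells, by population (x axis) and chemical (colour), with a short line at each group's mean. Under DMSO the NRF2 wells are the highest for complexes II and III, and replicate 2 of NRG1 under NNK lies far below its 2 neighbours in all 5 panels.

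Under NNK a few subunit genes rose clearly while most of the others did not pass the test. Of the 81 genes, 5 were higher and 1 lower, or 7.41%, where 7.22% of the 11349 genes tested were called, 3.06% higher and 4.16% lower (limma-voom, Benjamini-Hochberg adjusted p under 0.05, 21 wells per arm over 7 populations). NDUFA10 (hg19, chr2:240831867-240965160), an accessory subunit of complex I, ranged from 15.0 to 39.4 CPM under NNK with a median of 23.7. Under DMSO it ranged from 6.35 to 19.3 with a median of 12.3. It was higher in all 7 populations, and in 6 of them every NNK well lay above every DMSO well. Its log2 fold change was 1.00 (SE 0.11, limma adjusted p = 1.077e-11).

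SDHC (hg19, chr1:161284171-161332996), one of the membrane anchors of complex II, showed the same order. It lay between 78.6 and 190 CPM under NNK (median 129) and between 69.9 and 103 under DMSO (median 86.7). All 7 populations were higher, 6 of them without overlap, and the log2 fold change was 0.60 (SE 0.06, limma adjusted p = 1.005e-12). The other SDH genes did not pass. SDHD stood at a log2 fold change of 0.13 (limma adjusted p = 0.1707), SDHB at -0.03 and SDHA, with a median of 10.2 CPM, at -0.02.

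ATP5G1 and ATP5G2 encode identical mature c subunits, which form the rotating ring of complex V. ATP5G1 was at 398 to 777 CPM under NNK (median 646) and at 384 to 563 under DMSO (median 495), a log2 fold change of 0.35 (SE 0.05). ATP5G2 had medians of 514 and 409 CPM and a log2 fold change of 0.31 (SE 0.06), with 6 of 7 populations higher. For ATP5G3, the other gene of the same c subunit, the medians were 513 and 487 CPM and the log2 fold change was -0.02 (SE 0.05, limma adjusted p = 0.8923). ATP5B, the catalytic beta subunit, fell by 0.17 on the log2 scale (limma adjusted p = 0.0114) and was lower in 7 of 7 populations, though the wells overlapped in 4 of them. The call for ATP5B was lost without the population HCRED or PIK3CA and without replicate 1 or 3, with limma adjusted p up to 0.289. Over the alternatives, NDUFA10 stayed between 0.89 and 1.18, SDHC between 0.55 and 0.67, ATP5G1 between 0.30 and 0.41 and ATP5G2 between 0.24 and 0.39.

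**Figure D2:**
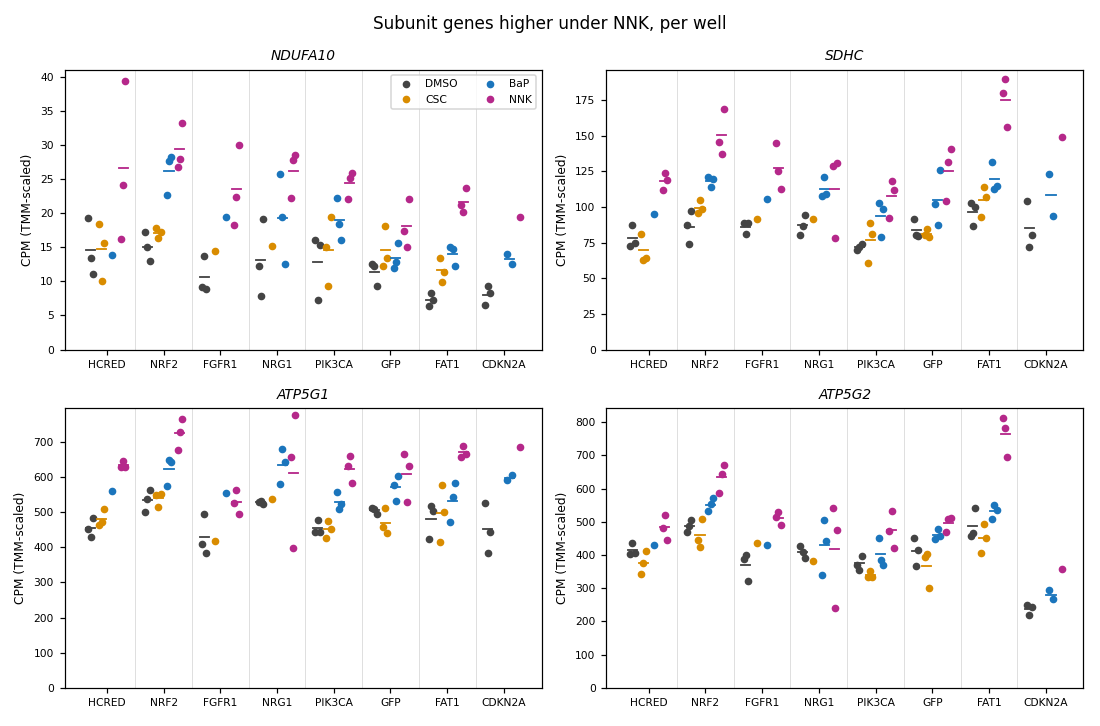
TMM-scaled CPM of NDUFA10, SDHC, ATP5G1 and ATP5G2 (y axes, from 0) in each of 82 wells by population and chemical, with a short line at each group's mean. The NNK mean is above the DMSO mean in each population for NDUFA10 and SDHC, and 1 NRG1 well under NNK is low for SDHC, ATP5G1 and ATP5G2.

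The number of genes called under NNK rested on 1 well. Without replicate 2 of NRG1 under NNK, 42 subunit genes were higher and 1 lower, where 2230 of 11279 genes were called. With that well in place, the members' median log2 fold change was 0.05, and the values of other short genes are given below. Also with that well in place, 7.94% of the members and 14% of all genes with a mean count above 100 were called. These shares were not computed without it.

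BaP gave many small increases. Of the 81 genes, 22 were higher and 2 lower (29.6%), against 9.11% of the 11306 genes tested, 4.68% higher and 4.43% lower (limma-voom, 15 wells per arm over 5 populations). The count was 9 in complex I, 2 in complex II, 3 in complex III and 4 in complex IV, all higher, and 4 higher and 2 lower in complex V. The median log2 fold change of the members was 0.06, and 0.003 over all genes. COX6C, a small structural subunit of complex IV, was at 1636 to 2664 CPM under BaP and 1656 to 2389 under DMSO, with a log2 fold change of 0.14 (SE 0.02, limma adjusted p = 4.61e-09). It was higher in 5 of 5 populations although the arms overlapped. NDUFB1 (0.17) and COX7A2 (0.14) gave the same picture.

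The genes that stood out under NNK were also called under BaP, with smaller values. SDHC was at 78.8 to 132 CPM under BaP against 69.9 to 103 under DMSO, and its log2 fold change was 0.37 (SE 0.05). NDUFA10 was at 0.65 (SE 0.13), ATP5G1 at 0.20 (SE 0.03) and ATP5G2 at 0.12 (SE 0.04). The BaP and NNK comparisons share DMSO wells, so the likeness of their values is no independent evidence. ATP5B (-0.13) and ATP5F1 (-0.07), both of complex V, were the 2 lower genes, and neither kept its call in all alternatives. Without replicate 2 in every group 10 members were higher and 0 lower, where 523 of 11286 genes were called. Without replicate 3 the counts were 15 and 0, where 600 of 11314 genes were called.

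Transcript length moved with both chemicals. Over all genes, the shortest of 5 equal length bins (up to 900 nucleotides) had a median log2 fold change of 0.04 under BaP and 0.04 under NNK, and the longest bin had -0.08 and -0.13. Within the shortest bin, the 55 members had medians of 0.06 under BaP and 0.05 under NNK, and the other genes 0.04 and 0.03. After removal of the length trend, 12 members were higher and 4 lower under BaP. With a GC trend removed as well, 10 were higher and 5 lower. Among genes with a mean count above 100, the share called under BaP was 32.3% for the members and 33.4% for all genes, so the members' share was near that of other abundant genes. The part of length, GC content and plate row in the BaP and NNK differences was not tested beyond these values.

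Under CSC the called genes were mostly lower, and most of those belonged to complex V. Of the 81 genes, 1 was higher and 9 lower (12.3%), against 5.82% of 11371 genes tested, 2.95% higher and 2.87% lower (limma-voom, 15 wells per arm over 5 populations), and 6 of the 9 belonged to complex V. ATP5F1, the b subunit of its peripheral stalk, was at 831 to 1236 CPM under CSC and 891 to 1315 under DMSO, lower in 5 of 5 populations, with a log2 fold change of -0.14 (SE 0.02, limma adjusted p = 2.508e-05). ATP5B was at 197 to 264 CPM against 218 to 306, and in each of the 5 populations every CSC well lay below every DMSO well (log2 fold change -0.18, SE 0.04). The alpha subunit gene ATP5A1 and the stalk gene ATP5O were both at -0.11, and their calls were lost without replicate 3. That of ATP5A1 was also lost when the 2-digit wells were added. NDUFV3, which belongs to the NADH-oxidizing arm of complex I, was the higher gene, with medians of 190 CPM under CSC and 159 under DMSO and a log2 fold change of 0.17 (SE 0.05). It lost its call without replicate 2, without PIK3CA and without NRF2 (limma adjusted p of 0.216, 0.127 and 0.0559). Without replicate 3 in every group 1 member was higher and 2 were lower, where 407 of 11378 genes were called. Among genes with a mean count above 100, 15.6% of the members and 22.8% of all genes were called. Of the 64 members there, 9 were lower and 1 higher, and of all genes there 13.3% were lower and 9.49% higher. The lower share of the members was thus near that of other abundant genes.

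The CSC response could be compared between NRF2 and HCRED cells. In NRF2 cells 5 members were lower under CSC (6.17%, against 1.63% of genes tested, 0.57% higher and 1.06% lower), and in HCRED cells 0 were called by limma (4 at an unadjusted p under 0.05, and 2 with scaling by library totals alone), against 1.06% of genes, 0.724% higher and 0.335% lower. COX7C in NRF2 cells was at 2640, 2526 and 2685 CPM under CSC and at 2929, 2893 and 2903 under DMSO, with no overlap (log2 fold change -0.14, SE 0.03). COX6B1 likewise was at 1834, 1855 and 1935 against 2050, 2070 and 2189 CPM. The number of calls in NRF2 cells fell to 2 without replicate 1 or 3 under DMSO, and to 3 without replicate 2 or 3 under CSC. At a mean count above 100 the share called in NRF2 cells was 7.69% for the members and 10.2% for all genes. The test of the difference between the responses called 0 of 81 members by limma (7 at an unadjusted p under 0.05), against 0.231% of genes tested (0.0178% higher and 0.213% lower), so a difference between NRF2 and HCRED cells was not detectable here.

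In NRF2 cells, subunit genes of all 5 complexes were higher. Of the 81 genes, 30 were higher and 1 lower than in HCRED under DMSO (38.3%), where 4.92% of 11217 genes were called, 3.39% higher and 1.53% lower (limma-voom, 3 wells each). Higher genes were found in every complex, with 11 in complex I, 1 in II, 4 in III, 5 in IV and 9 in V, and the median over the members was 0.19 on the log2 scale. In 46 genes all NRF2 wells lay above all HCRED wells and in 2 below, 59.3% without overlap against 19.7% of all genes. UQCRQ, a small subunit of complex III, was at 3542, 3470 and 3681 CPM in NRF2 wells. In HCRED wells it was at 2644, 2607 and 2775, and the log2 fold change was 0.40 (SE 0.03, limma adjusted p = 3.904e-20).

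SDHD, the other membrane anchor of complex II, was at 666, 693 and 748 CPM in NRF2 wells and 411, 409 and 448 in HCRED wells. Its log2 fold change was 0.72 (SE 0.06), and it carried the difference in complex II, whose other genes were not called. COX6C (0.42) and COX7C (0.36), small subunits of complex IV, were also higher, the first at 2389, 2330 and 2378 CPM against 1721, 1672 and 1849. ATP5E, the epsilon subunit in the stalk of complex V, was the exception, at 79.6, 48.9 and 65.7 CPM against 99.0, 113 and 112 (log2 fold change -0.80, SE 0.13, limma adjusted p = 2.662e-06). The differences recurred in wells exposed to other chemicals, with SDHD at 0.64 under CSC and 0.68 under NNK, UQCRQ at 0.30 and 0.32, and ATP5E at -1.0 and -0.84. With scaling by library totals alone 21 were higher and 3 lower. Among genes with a mean count above 100, 47.7% of the members and 26.9% of all genes were called.

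The other overexpressing populations had fewer calls. In PIK3CA cells 10 members were higher and 4 lower (17.5%, against 5.37% of genes tested, 3.4% higher and 1.97% lower). UQCRQ was at 3153, 3227 and 3118 CPM (log2 fold change 0.23) and NDUFA6, an accessory subunit of complex I, at 1016, 1023 and 1019 against 800, 755 and 831 in HCRED (0.35, SE 0.05). In wells under NNK the NDUFA6 difference was 0.18 and not called (limma adjusted p = 0.0972). ATP5E was again lower, at 68.0, 61.6 and 55.7 CPM (log2 fold change -0.82, SE 0.12), and stayed so under CSC (-0.84) and NNK (-0.91). NDUFA4 was lower by a small amount (-0.19). With scaling by library totals alone the split in PIK3CA cells was 7 higher and 13 lower, so the direction of the small differences there depended on the scaling. Above a mean count of 100, 21% of the members and 25.9% of all genes were called.

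In NRG1 cells 5 members were higher and 1 lower (7.5%, against 3.1% of genes, 2.1% higher and 0.998% lower). COX7A2, ATP5F1, ATP5H and ATP5J were among the higher genes by 0.12 to 0.19 on the log2 scale, and COX7C was at -0.12. The shares at a mean count above 100 were 9.52% for the members and 17.2% for all genes. None of these calls was made without replicate 1 of NRG1 under DMSO, and with library totals alone 0 members were higher and 11 lower. In FGFR1 cells limma called 0 of 81 members (12 at an unadjusted p under 0.05, and 0 by edgeR or DESeq2), against 0.905% of genes, 0.501% higher and 0.404% lower. Without replicate 3 of FGFR1 under DMSO, 14 were higher and 0 lower, where 316 of 11282 genes were called.

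The GFP control itself differed from HCRED in these genes. Of the 81 genes, 28 were higher and 7 lower (43.2%), where 10.8% of 11134 genes were called, 5.93% higher and 4.86% lower. NDUFA4 was at 4310, 4025 and 4201 CPM in GFP wells and 3141, 2925 and 3057 in HCRED wells (log2 fold change 0.44, SE 0.02, limma adjusted p = 2.508e-19). COX4I1, the ubiquitous isoform of a nuclear subunit of complex IV, was at 0.38 and COX6B1 at 0.38. On the lower side, NDUFC1 of complex I was at 159, 195 and 181 CPM against 290, 269 and 294 (-0.69, SE 0.08), and UQCRC2, a core protein of complex III, was at -0.66. NDUFB10 was at 49.0, 49.1 and 48.4 CPM against 74.9, 81.0 and 85.6 (-0.74, SE 0.14). NDUFC1, UQCRC2 and NDUFA4 kept their directions under CSC (-0.75, -0.64 and 0.37) and NNK (-0.98, -0.64 and 0.29). The balance between higher and lower genes was not the same across chemicals, at 19 higher and 13 lower under CSC and 5 higher and 14 lower under NNK, and it was 24 higher and 11 lower with library totals alone. Among genes with a mean count above 100, 51.6% of the members and 47.4% of all genes were called.

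FAT1 knockout cells differed from GFP in both directions. Compared with GFP, 15 were higher and 21 lower (44.4%, against 14.1% of 11142 genes tested, 6.49% higher and 7.62% lower), and the median over the members was -0.02. UQCRC2 was at 322, 357 and 323 CPM in FAT1 wells and 202, 177 and 216 in GFP wells (log2 fold change 0.74, SE 0.09, limma adjusted p = 2.43e-11). NDUFV2, an iron-sulfur subunit of complex I, was at 278, 293 and 290 against 177, 163 and 181 (0.71, SE 0.09). COX7B of complex IV was at 932, 1023 and 1010 CPM against 1581, 1587 and 1492 (-0.67, SE 0.05), and ATP5I, a small membrane subunit of complex V, at 699, 804 and 835 against 1266, 1195 and 1146 (-0.64, SE 0.06). No well overlapped for these 4 genes. Under DMSO, UQCRC2 averaged 311 CPM in HCRED, near FAT1 (334) and above GFP (198). NDUFV2 averaged 183 CPM in HCRED, near GFP (174) and below FAT1 (287). Members with a mean count above 100 were called in 50% of cases, and all genes above it in 48.2%. Under the 3 chemicals the log2 fold changes kept their signs, at 0.70 to 0.90 for UQCRC2, 0.80 to 1.01 for NDUFV2, -0.69 to -0.48 for COX7B and -0.63 to -0.39 for ATP5I.

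CDKN2A knockout cells had mostly lower levels than GFP. Of the 80 members tested, 5 were higher and 34 lower than in GFP (48.8%, against 17.9% of 11575 genes tested, 8.6% higher and 9.28% lower), with a median log2 fold change of -0.26, and 12 of the lower genes belonged to complex V. NDUFB2 of complex I was at 305, 249 and 291 CPM against 628, 606 and 612 in GFP wells (-1.12, SE 0.11, limma adjusted p = 8.93e-15). ATP5J2, a membrane subunit of complex V, was at 486, 326 and 441 against 829, 795 and 818 (-0.97, SE 0.11). ATP5C1, the central shaft of complex V, was at 699, 475 and 668 against 1098, 997 and 1046 (-0.78, SE 0.10). NDUFC1 went the other way, at 398, 318 and 379 CPM against 159, 195 and 181 (1.04, SE 0.12), as did ATP5L (0.69) and SDHD (0.57), while SDHB, the iron-sulfur subunit of complex II, was at -0.62. COX6B2, the testis isoform, was at 1.64 but at very low counts and not called (limma adjusted p = 0.1059). In HCRED under DMSO, NDUFB2 averaged 418 CPM, ATP5J2 644 and NDUFC1 284, each between the GFP and CDKN2A means. Over all members the CDKN2A wells summed to 38942, 48454 and 50112 CPM. The GFP wells lay at 52515 to 53926 and the HCRED wells at 46081 to 48499.

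With scaling by library totals alone in CDKN2A cells, the median over all genes moved from 0.03 to 0.13 and that of the members from -0.26 to -0.15, with 13 members higher and 32 lower, so the members' median was below that of all genes under both scalings. Without replicate 2, the well that stood apart, 13 were higher and 36 lower and the median was -0.21. NDUFB2 was then at -1.03, ATP5J2 at -0.80, ATP5C1 at -0.60, NDUFC1 at 1.14, ATP5L at 0.79 and SDHD at 0.68. In the same comparison, 49 of 82 cytosolic ribosomal protein genes were lower and 7 higher (68.3%, against 17.9% of all genes). Among genes with a mean count above 100, 55.4% of the members and 48.3% of all genes were called.

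**Figure D3:**
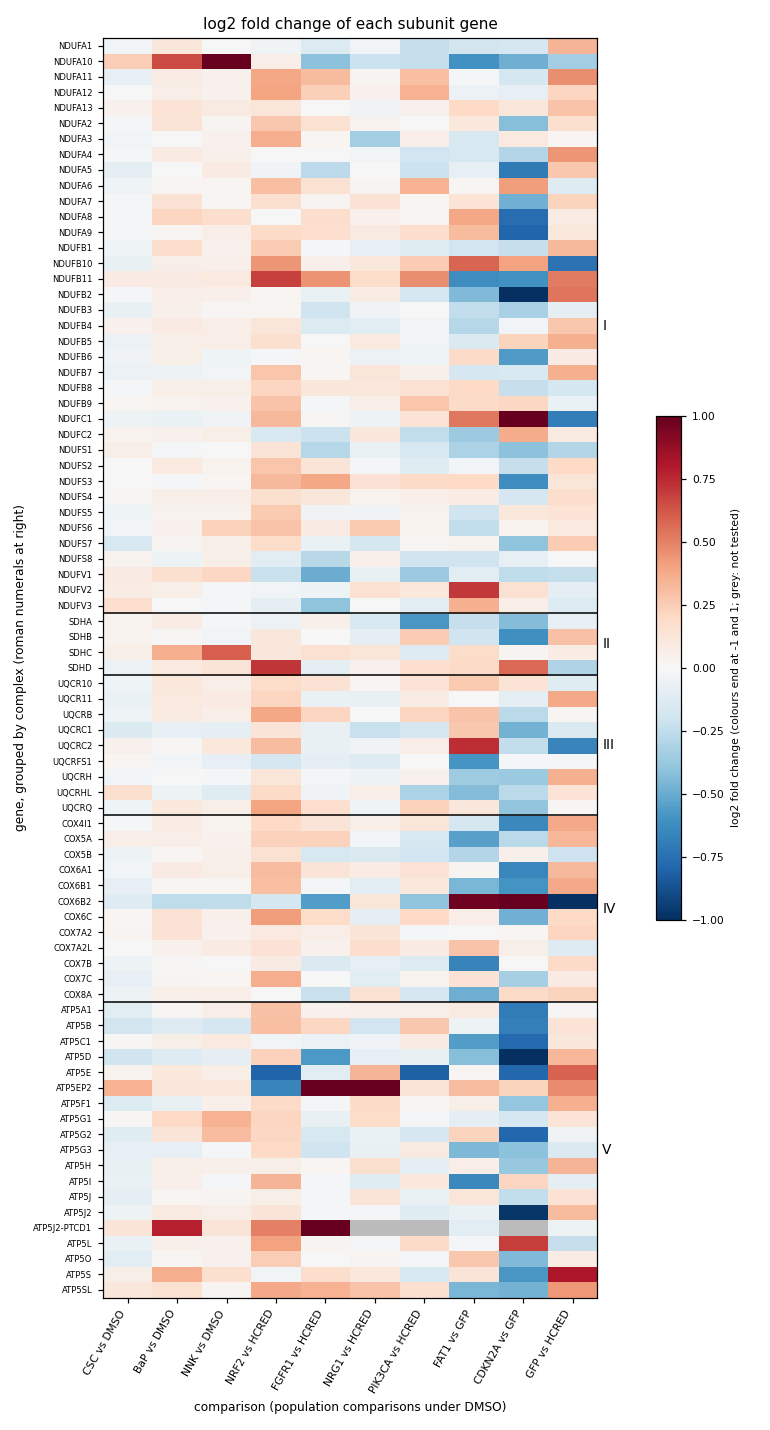
Log2 fold change (colour, ending at -1 and 1) of each of the 81 genes (rows, grouped by complex) in the 3 chemical comparisons and the 7 population comparisons under DMSO (columns), with grey for genes not tested. The NRF2 column is mostly red, the FAT1 and CDKN2A columns hold strong colours of both signs, and NDUFA10 and SDHC stand out under NNK and BaP.

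**Figure D4:**
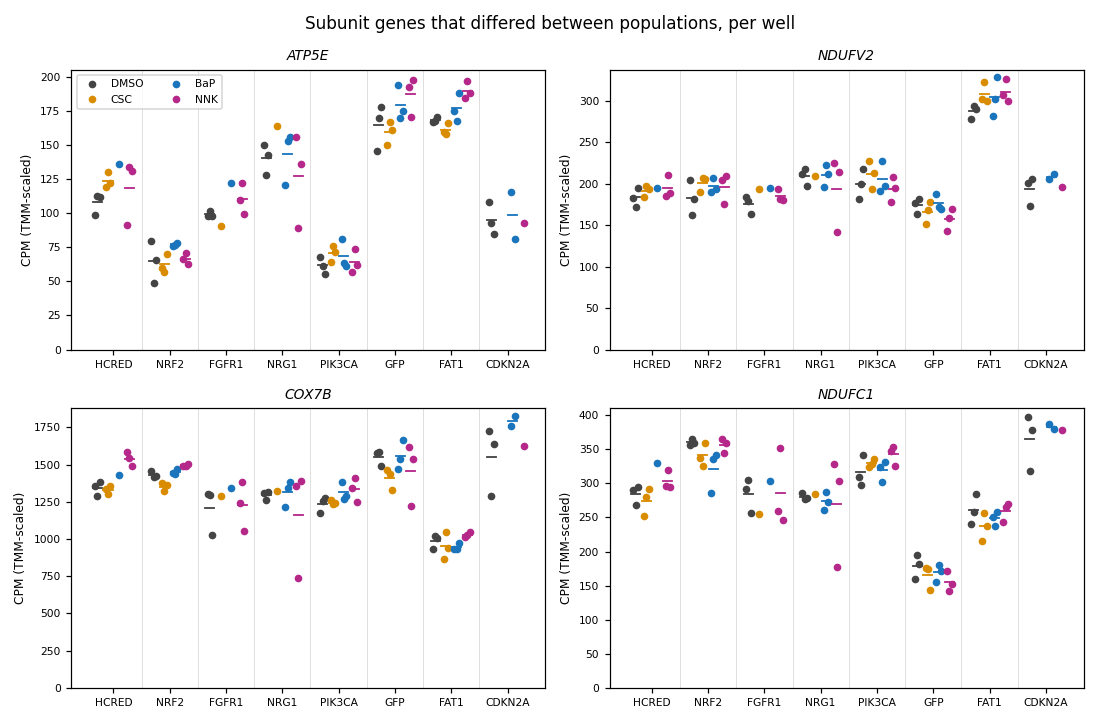
TMM-scaled CPM of ATP5E, NDUFV2, COX7B and NDUFC1 (y axes, from 0) in each of 82 wells by population and chemical, with a short line at each group's mean. ATP5E is low in NRF2 and PIK3CA, NDUFV2 is high and COX7B low in FAT1, and NDUFC1 is low in GFP and high in CDKN2A.

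Where the populations differed, neighbouring genes on the same chromosome often differed the same way. For each subunit gene, the median log2 fold change was taken over the other genes within 5 Mb on either side (hg19 positions, mean count above 10, members left out). This measure was chosen after the data were examined and is given as a description over genes, which share wells and, where close together, share neighbours. Across the members, Spearman's rho between a gene's own value and that of its neighbours was 0.55 in NRF2 (n = 81 genes), 0.59 in PIK3CA (n = 80), 0.69 in FAT1 (n = 81), 0.66 in CDKN2A (n = 80) and 0.61 in GFP against HCRED (n = 81). It was 0.35 in FGFR1 and 0.11 in NRG1. Over all genes the values were 0.30, 0.27, 0.52, 0.55 and 0.47 for the first 5 comparisons. For the chemicals the members gave 0.07 under CSC, -0.04 under BaP and -0.02 under NNK.

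The following are the 2 called members with the largest absolute log2 fold change in each of these 5 comparisons. In NRF2 cells ATP5E (hg19, chr20:57600530-57607400) was at -0.80, where its 23 neighbours had a median of -0.56. Of these, 16 were on the same side as ATP5E, and 8 were called lower but 5 called higher. SDHD (chr11:111957548-111990739) was at 0.72 with 24 neighbours at 0.37, 22 of them on the same side. PIK3CA cells had ATP5E at -0.82 with 24 neighbours at -0.48, of which 17 were on the same side, 7 called lower and 5 called higher. They had NDUFB11 (chrX:47001470-47004865), an accessory subunit of complex I, at 0.46 with 14 neighbours at 0.17, 11 of them on the same side. FAT1 cells had UQCRC2 (chr16:21964609-21994981) at 0.74 with 20 neighbours at 0.58, all on the same side, and NDUFV2 (chr18:9102628-9134343) at 0.71 with 19 at 0.47. CDKN2A cells had NDUFB2 (chr7:140390577-140422590) at -1.12 and NDUFC1 (chr4:140188034-140223705) at 1.04, and the 11 neighbours of each were at -0.84 and 1.18, all on the same side as the gene. For GFP against HCRED, ATP5S (chr14:50779042-50802276) was at 0.80 with 26 neighbours at 0.22 and NDUFB10 (chr16:2009539-2011976) at -0.74 with 24 at -0.86. COX6B2 and ATP5D, named here after their values were seen, were at 1.64 and -1.01 in CDKN2A cells and not called, and their 39 and 31 neighbours were at -0.14 and -0.06. Of the called members, 27 of 31 in NRF2, 14 of 14 in PIK3CA, 33 of 36 in FAT1, 32 of 39 in CDKN2A and 29 of 35 in GFP had the sign of their neighbours, and over all called genes the shares were 77.5%, 79.4%, 85%, 84.7% and 82.7%. Under NNK, in contrast, NDUFA10 was at 1.00 with neighbours at 0.04, and SDHC at 0.60 with neighbours at 0.09. The part of chromosomal position in the population differences was not tested.

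**Figure D5:**
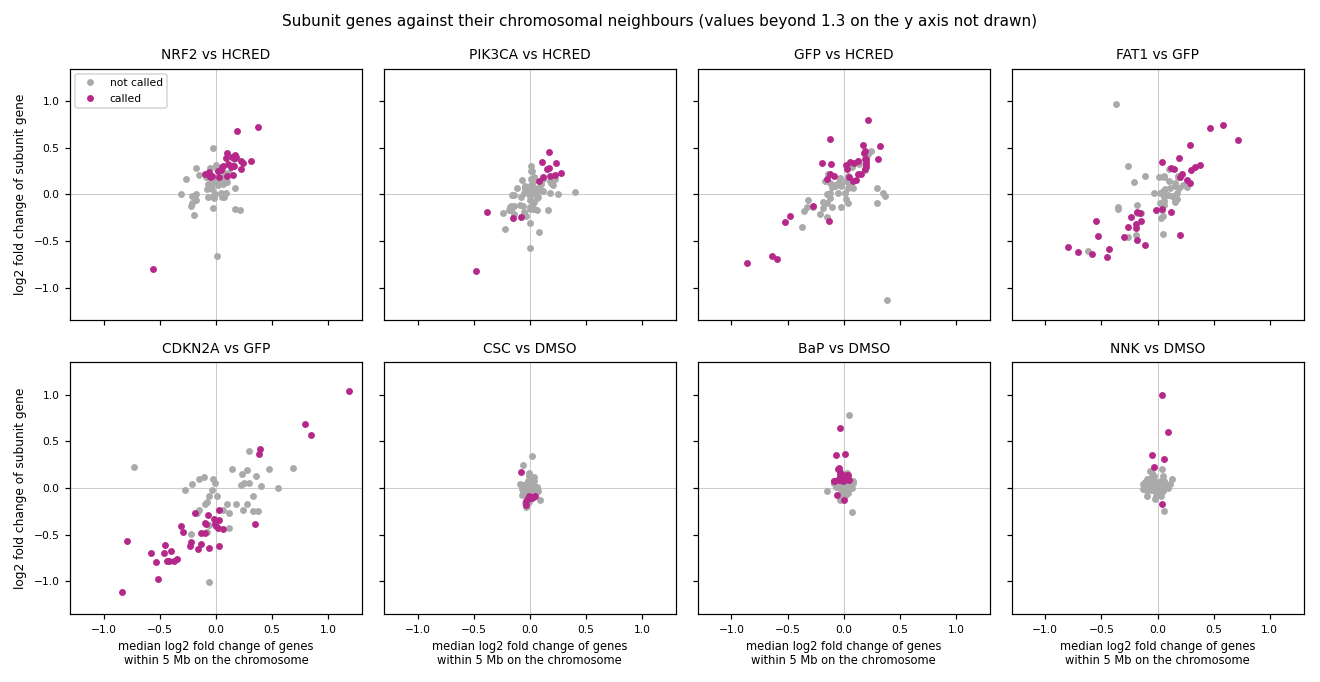
Log2 fold change of each subunit gene (y axis) against the median log2 fold change of the genes within 5 Mb of it (x axis) in 5 population and 3 chemical comparisons, with called genes in magenta. Points follow a rising trend in the population panels and a vertical band at 0 in the chemical panels, and COX6B2 in CDKN2A cells, at 1.64, lies outside the drawn range.

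Other genes of the pathway gave the following. Of the carriers and subunits outside the naming rule, CYCS, which encodes cytochrome c, was at 0.49 in NRF2 cells and 0.47 in PIK3CA cells, and at -0.11 under BaP and -0.08 under CSC, all called. CYC1, the cytochrome of complex III, was at -0.94 in GFP against HCRED. Of 41 assembly factors tested, 8 were higher and 2 lower under BaP (24.4%, against 9.11% of all genes), 2 were higher under CSC (4.88%, against 5.82%), 1 under NNK (2.44%, against 7.22%) and 4 in NRF2 cells (9.76%, against 4.92%). Of 12 biogenesis regulators, limma called 1 higher and 1 lower under BaP (16.7%), where TFAM, which packages mitochondrial DNA, was at -0.16. Of 18 genes of the tricarboxylic acid cycle and pyruvate dehydrogenase, 1 was higher and 5 lower in CDKN2A cells (33.3%, against 17.9%), and PDHA1 was at -0.99 in FAT1 cells. Of 77 mitochondrial ribosomal protein genes, 12 were higher in NRF2 cells (15.6%, against 4.92%), and 17 were higher and 9 lower in CDKN2A cells (33.8%, against 17.9%).

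Gene groups of other large complexes were counted in the same comparisons. Of 82 cytosolic ribosomal protein genes tested, 55 were higher and 5 lower in NRF2 cells (73.2%, against 4.92% of all genes), 1 higher and 36 lower under CSC (45.1%, against 5.82%), 21 higher and 7 lower under BaP (34.1%, against 9.11%) and 13 higher and 1 lower under NNK (17.1%, against 7.22%). Of 39 proteasome subunit genes tested, 20 were higher under BaP (51.3%) and 13 under CSC (33.3%). Among the 81 subunit genes, ATP5B, ATP5F1, ATP5G2, COX6B1 and COX7C were each called in 6 of 13 comparisons, more than the other members. Of the isoform pairs, COX4I1, COX6A1, COX6B1, COX7A2, COX8A and NDUFA4 were the forms measured throughout, and SDHA was called in none of the comparisons.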

How the data were processed

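3′DGE libraries of 95 AALE wells were analysed. The authors deposited raw unique-molecule counts per RefSeq symbol. Per the labels, reads were aligned with BWA 0.7.10, and the genome build named is hg19. No other normalization is in the files. Expression was tested with limma-voom (limma 3.58.1, edgeR 4.0.16 for TMM scaling, R 4.3.3) on genes with a mean count above 1 in the wells compared, with Benjamini-Hochberg adjusted p under 0.05 over all genes tested. Chemical comparisons had population as covariate and used the populations with 3 wells in both arms. Population comparisons used wells under DMSO. CPM values are TMM-scaled, except those of the cell type markers, which are scaled to library totals alone. Promoter sequences are RefSeq (GRCh38.p14).

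Named genes were, in each comparison, up to 4 higher and 4 lower members with the smallest adjusted p, the members called most often, isoform pairs and the SDH genes. The members and gene lists were chosen with earlier results of these data known. The split by mean count above 100 and the chromosomal neighbours were added after seeing the data. The shorter core of nuclear respiratory factor 1 was chosen after the share of the full palindrome had been seen, and levels without NDUFA4 and without CDKN2A replicate 2 were added after seeing the data. Alternatives were edgeR's quasi-likelihood test, DESeq2 1.42.0, other scalings and filters, removal of length and GC trends, the replicate block, leaving out wells, replicates or populations, other chemicals' wells and the wells with 2-digit numbers. The procedure was tested on simulated data. Whether same-numbered wells deviate together was checked, and their deviations had mean correlations of 0.005 (CSC, BaP) and 0 (NNK), so the numbers were not taken as pairs.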

Additional observations from a re-analysis of the deposited data

Results flagged for a closer look

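Complex IV differed in direction between populations under CSC. On the log2 scale the CSC minus DMSO difference was 0.04 in PIK3CA wells, with every CSC well above the DMSO wells, and -0.07 in GFP wells and -0.07 in NRF2 wells, with every CSC well below. The difference between the populations was not tested.

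The wells with 2-digit replicate numbers entered no main comparison and were used only in alternatives. In some of them the subunit genes lay above all DMSO wells of their population. Only such cases are listed, and those that overlapped the DMSO wells or lay below them are left out. The genes looked at were the 81 together and those named in the main comparison of the same chemical. In 2 CDKN2A wells under NNK the 81 genes together were 0.32 higher on the log2 scale, ATP5G1 0.76, ATP5G2 1.05, NDUFA10 1.14 and SDHC 1.02. The DMSO wells they were set against include replicate 2, which stood apart. In 2 FGFR1 wells under BaP the 81 genes were 0.21 higher, COX6C 0.29, COX7A2 0.28, NDUFB1 0.29 and SDHC 0.37, and the DMSO wells include replicate 3, which stood apart. In 2 HCRED wells under BaP the values were 0.15 for the 81 genes, 0.21 for COX6C, 0.23 for COX7A2, 0.29 for NDUFB1 and 0.46 for SDHC. What the 2-digit numbers mean is not given in the sources used here.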

How the results depend on the processing

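Counts of subunit genes called stayed within 1.5 times the reported count in 196 of 234 alternatives, and named genes kept direction and call in 1030 of 1119, lost the call in 81 and reversed in 8. The cause of the changes was not tested. Parentheses of the form 720 of 11371 give the calls over all genes tested. Under CSC (10 called) scaling by library totals alone gave 16 (720 of 11371). Leaving out the population GFP gave 6 (516 of 11431), and leaving out NRF2 gave 6 (504 of 11347). Adding summed 2-digit wells gave 5 (1039 of 11646), and leaving out replicates gave 3 to 8. BaP (24 called) gave 15 with length and GC trends removed (868 of 11306), 15 without PIK3CA (842 of 11309) and 15 without GFP (798 of 11337). It gave 45 with all wells as separate samples (1924 of 11406) and 42 with summed 2-digit wells (1872 of 11493). Without single replicates it gave 10 to 22. For NNK (6 called) a mean count above 10 gave 10 (992 of 5673), and leaving out NRG1 gave 42 (2036 of 11247). Leaving out replicate 2 in every group gave 31 (1424 of 11233), and the lowest count without a replicate was 4. Leaving out only the well NRG1 replicate 2 under NNK gave 43 (2230 of 11279). NRF2 (31 called) gave 19 in wells under NNK (332 of 10760), and 26 to 30 without single wells. FGFR1 (0 called by limma) gave 6 with library totals, 5 higher and 1 lower (206 of 11379). In wells under NNK it gave 3, 0 higher and 3 lower (166 of 10575). Over all chemicals it gave 8, 2 higher and 6 lower (364 of 11147). Without single wells it gave 0 to 14, with 14 higher and 0 lower without replicate 3 (316 of 11282). The direction was thus not the same across alternatives. NRG1 (6 called) gave 3 with edgeR (375 of 11328) and 11 with library totals, all lower (306 of 11328). With length and GC trends removed it gave 11, 8 higher and 3 lower (359 of 11328). By limma it gave 0 in wells under NNK (13 of 11216), 0 over all chemicals (48 of 11387), and 0 to 5 without single wells. PIK3CA (14 called, 10 higher and 4 lower) gave 6 in wells under NNK, 1 higher and 5 lower (327 of 10465). Over all chemicals it gave 32, 20 higher and 12 lower (1462 of 11108), and without single wells 10 to 13. FAT1 (36 called) gave 22 in wells under CSC, 11 higher and 11 lower (1230 of 11121), and 26 to 35 without single wells. CDKN2A (39 called) gave 30 to 49 without single wells. GFP against HCRED (35 called) gave 19 in wells under NNK, 5 higher and 14 lower (829 of 10508). Without single wells it gave 29 to 34. CSC in HCRED cells (0 called) gave 2 with library totals (161 of 11043) and 0 without single wells. CSC in NRF2 cells (5 called) gave 3 with edgeR (179 of 11236), 2 with library totals (184 of 11236) and 2 to 5 without single wells. The count for the difference between these responses stayed at 0.

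The reversals were all in NRG1 against HCRED. In wells under NNK the log2 fold changes were -0.26 for COX7A2, -0.21 for ATP5F1, -0.09 for ATP5H and -0.22 for ATP5J. Over all chemicals they were -0.06 for COX7A2, 0 for ATP5F1 and -0.04 for ATP5J. Without replicate 2 of NRG1 under NNK, an alternative chosen after seeing the data, COX7A2 was at -0.02. A fit with a replicate block gave 32 calls in NRF2 cells, 38 in FAT1 cells and 41 in CDKN2A cells, and the reported counts of 10, 24, 6, 0, 6, 14 and 35 in CSC, BaP, NNK, FGFR1, NRG1, PIK3CA and GFP. Low counts limit members such as SDHA and COX6B2.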
